A study of Mus musculus with 8 samples.

Results

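The NR4A orphan nuclear receptors are a family of 3 genes, Nr4a1 (Nur77), Nr4a2 (Nurr1) and Nr4a3 (NOR-1). All 3 were found by symbol among the 35494 gene symbols of a quadriceps RNA sequencing table, and all 3 passed the filter on low counts, with at least 29 estimated counts in every library. The study compared 4 wild-type male C57BL/6 mice given 1000000 cells of MC38, a colorectal carcinoma line of mouse origin, under the skin (scMC38, in 200 µl) with 4 wild-type males of the same strain that received the same volume of PBS without cells (control). Mice were 8 weeks old when randomised, muscle was taken at day 28, and each mouse gave 1 library. The model is 1 tumour line in 1 sex and strain, at 1 time. The family was chosen with its fold changes in this comparison already known, so its levels and differences are given as a description, without a test.

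NR4A receptors bind DNA as other nuclear receptors do, but their ligand pocket is largely filled by the protein's own side chains, so their activity is set mainly by how much receptor is made. Their genes are immediate early genes: cAMP, acting through protein kinase A and CREB, calcium and MAP kinase signals switch them on within minutes to hours, and in skeletal muscle exercise and beta-adrenergic agonists are well known inducers. All members bind the NBRE element as monomers, Nr4a1 and Nr4a2 can also pair with the retinoid X receptors, and in muscle the family is linked to genes of glucose and fat use and to fibre growth.

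The sequences before the start sites are shown because the family shares a feature there that its expression values did not define. The element searched was the half-site of the cAMP response element that CREB binds, TGACG on either strand (read as CGTCA on the other), in the 250 bases before each start in RefSeq's table for GRCm38.p6. Each of the 3 NR4A windows held 4 half-sites, in capitals below. At least 4 were present in 45 of 32851 windows of this length (0.137%), and at least 1 in 17.8%. The Nr4a1 window is chr15:101266596-101266845 on the plus strand, and the Nr4a2 window is chr2:57124004-57124253 on the minus strand.
Nr4a1: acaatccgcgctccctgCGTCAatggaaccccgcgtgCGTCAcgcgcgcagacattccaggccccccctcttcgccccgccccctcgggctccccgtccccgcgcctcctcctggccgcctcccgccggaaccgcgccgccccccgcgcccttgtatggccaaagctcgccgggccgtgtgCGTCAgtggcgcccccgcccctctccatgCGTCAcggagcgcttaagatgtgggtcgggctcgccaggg
Nr4a2: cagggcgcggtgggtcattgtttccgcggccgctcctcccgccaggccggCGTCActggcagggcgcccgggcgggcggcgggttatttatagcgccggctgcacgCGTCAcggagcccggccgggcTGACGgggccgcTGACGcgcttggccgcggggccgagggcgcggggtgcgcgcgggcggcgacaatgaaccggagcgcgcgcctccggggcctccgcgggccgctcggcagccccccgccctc
For Nr4a3, on the plus strand of chromosome 4, longer annotated transcripts begin inside the window, so only short stretches around the half-sites are shown, the first starting 236 bases, the next 218 bases and the last 152 bases before the start used.
Nr4a3 first stretch (chr4:48045069-48045083): gagggTGACGtagcg
Nr4a3 next stretch (chr4:48045087-48045109): catgtCGTCAcatTGACGtctcg
Nr4a3 last stretch (chr4:48045153-48045167): ataaaTGACGtgccg
The half-sites lay 40 to 233 bases before the start in Nr4a1, 111 to 200 in Nr4a2 and 147 to 231 in Nr4a3. None of the 3 windows held the palindromic element TGACGTCA (found in 1.55% of all windows) or the NBRE letters AAAGGTCA (1.34%), and windows of at least 65% GC held 4 or more half-sites in 0.358%. The Nr4a1 and Nr4a2 windows lay above that GC limit, at 74.4% and 80%, and the Nr4a3 window lay below it, at 63.6%. Of 37 immediate early genes listed for comparison, 27 had an entry: 16 of these (59.3%) held at least 1 half-site and 0 held 4, against 19.8% and 0.163% of all 27025 genes in the table, taking each gene's best window. A match to these letters is a description and not a measured binding site.

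Libraries held 50465092 to 62105453 estimated counts. Muscle fibre genes (8 markers, Acta1 and Ckm among them) summed to between 93345 and 132297 counts per 1000000 (CPM) in all libraries, so the tissue label and the markers match. scMC38 1 and 3 stood apart: genes of neutrophils (8 markers) summed to 294 and 2656 CPM in them, against 11.7 and 31.4 in scMC38 2 and 4 and 1.88 to 6.08 in controls, and 4 marrow progenitor genes summed to 43.4 and 378 CPM against at most 0.315 in the other 6. The 6 bone markers summed to 60.6 and 456 CPM in scMC38 1 and 3, and to 2.53 to 18.4 CPM in the other 6 libraries. The source of this mRNA was not tested. Genes of the mitochondrial genome took 24.3% and 29.7% of counts in control 1 and 2, and 14.4% to 18.9% elsewhere. In edgeR's quasi-likelihood test 0.737% of 14112 genes were called higher and 0.468% lower in scMC38 (1.2% in either direction, at a Benjamini-Hochberg adjusted p under 0.05). That is 104 and 66 genes, and scaling by total counts gave 216 and 51 (1.89%). An unadjusted p under 0.05 was reached by 21.0% of all tested genes, and DESeq2 called 10.1%. The counts below for lists of genes are to be read against these shares.

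Nr4a3 encodes NOR-1, a strongly exercise-responsive member of the family in muscle. Its level in controls 1 to 4 was 16.9, 19.1, 11.0 and 9.98 CPM, scaled by the trimmed mean of M values (TMM). In scMC38 1 to 4 it was 2.18, 2.31, 1.61 and 3.39 CPM. The groups did not overlap, and the lowest control stood 2.95-fold above the highest scMC38 library. Controls averaged 14.2 ± 4.43 and scMC38 2.37 ± 0.743 CPM (SD, n = 4). On the log2 scale scMC38 stood at -2.59 (SE 0.29) relative to control, which is 6.02-fold lower. The spread relative to the mean was alike in both groups (31.1% and 31.4%), although control 1 and 2 lay above control 3 and 4. The separation was already present in the estimated counts before scaling, at 1010, 1033, 551 and 548 in controls and 129, 122, 113 and 172 in scMC38. The log2 difference was -2.30 without scMC38 1 and 3, the libraries with the most mRNA of marrow progenitor genes, and -2.16 without control 1 and 2. Because these are bulk samples, fewer cells that carry an mRNA and less of it per cell cannot be told apart, here and below.

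Nr4a2 encodes Nurr1, best known from dopaminergic neurons. It stood at 9.54 CPM in control 1 and 5.72 in control 2, and at 0.960 and 1.37 in control 3 and 4. In scMC38 1 to 4 it was 0.709, 0.549, 0.840 and 0.630 CPM. So the 4 scMC38 libraries were low and close together, while the controls fell into a high pair and a low pair, and control 3 was only 1.14-fold above scMC38 3. Means were 4.4 ± 4.05 CPM in controls and 0.682 ± 0.124 CPM in scMC38 (SD, n = 4), a relative spread of 92.1% against 18.2%. The log2 fold change was -2.68 (SE 0.70). It was -1.97 without control 1, and -0.78 without control 1 and 2. Scaled by total counts the groups overlapped, with control 3 at 0.951 and scMC38 3 at 0.956 CPM.

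The high pair of Nr4a2 values came from the control libraries with the highest mitochondrial share. Control 1 and 2 also held more summed mRNA of 5 smooth muscle and pericyte markers (631 and 792 CPM) than the other 6 libraries (353 to 514 CPM). Rgs5 made up most of the sum, with a mean of 393 CPM over all libraries, against 23.6 to 37.7 CPM for each other marker. Averaged over the 5 markers, log2 CPM relative to the control mean was 0.10 and 0.24 in control 1 and 2, and 0.06 in control 4. In the rest it was -0.76 to -0.38. The 7 endothelial markers summed to 366 and 495 CPM in control 1 and 2, against 249 to 425 CPM elsewhere. All 7 endothelial and all 5 smooth muscle and pericyte markers passed the filter on low counts. In scMC38 3, with the endothelial sum at 425 CPM, Nr4a2 was 0.840 CPM. The part of these differences in the Nr4a2 values was not tested.

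Nr4a1 encodes Nur77, the member with the most mRNA in this muscle. Controls 1 to 4 held 249, 209.6, 247 and 155 CPM. scMC38 1 to 4 held 168, 52.5, 127 and 209 CPM. The groups overlapped: control 4 lay below scMC38 1 and 4, and scMC38 2 lay far below all other libraries. Means were 215 ± 44.2 and 139 ± 66.8 CPM (SD, n = 4), and the log2 fold change was -0.63 (SE 0.37). The difference rested in large part on scMC38 2, without which it was -0.36.

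**Figure D1:**
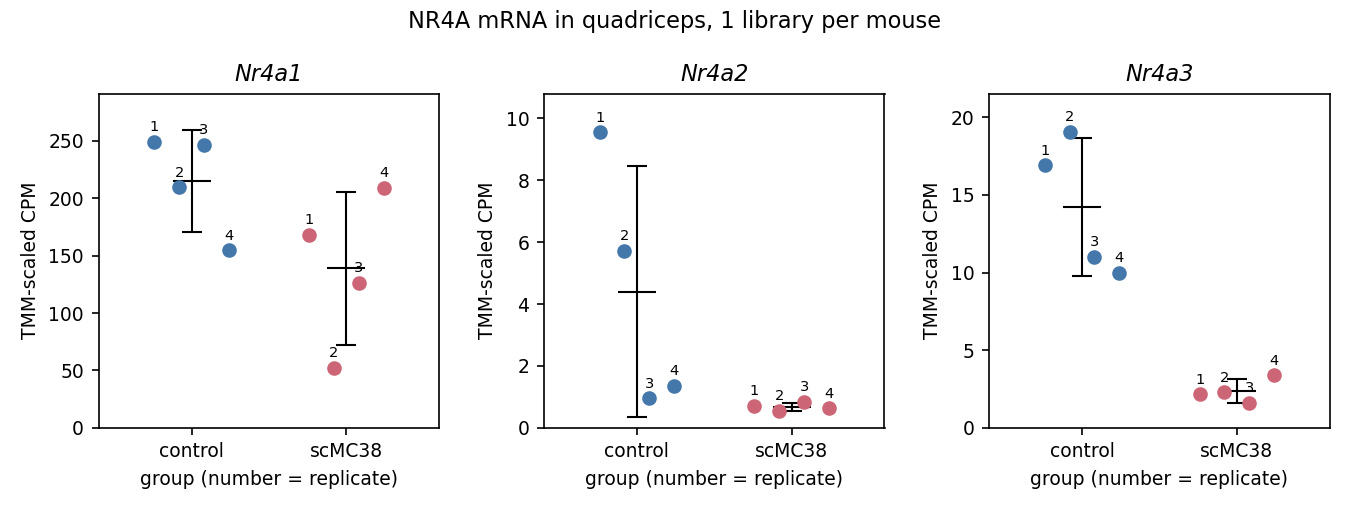
TMM-scaled CPM of Nr4a1, Nr4a2 and Nr4a3 by group, 1 point per mouse numbered by replicate, with the group mean and SD as bars and each axis starting at 0. Nr4a3 is separated in all 4 against 4 libraries (lowest control 9.98, highest scMC38 3.39), Nr4a2 is high only in control 1 and 2 (9.54 and 5.72), and Nr4a1 overlaps.

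Of the 3 genes, 2 had every scMC38 library below every control, where 6.45% of all tested genes did (6.82% had the reverse, 13.3% either), and Nr4a3 was among the genes called lower (0.468% of all tested). These counts come from the comparison the family was chosen on, and nothing is read from them.

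To compare the members with each other, levels were divided by transcript length (CPM per kb of the longest principal transcript in GENCODE M21). On that scale Nr4a1 made up 94.3% to 97.8% of the family's mRNA in control libraries and 97.4% to 99.1% in scMC38. The share of Nr4a3 was 1.95% to 3.83% in controls and 0.562% to 1.91% in scMC38. Nr4a3 was above Nr4a2 in all 8 libraries, by the least in control 1 (2.96 against 2.67 CPM per kb). The family's summed level ran from 62.7 to 103 CPM per kb in controls and from 21.1 to 82.6 in scMC38, so the groups overlapped in the sum as they did in Nr4a1.

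Among the 49 nuclear receptor genes measured, Nr4a1 had the second highest mean level in controls, at 84.3 ± 17.3 CPM per kb (SD, n = 4). It did not differ beyond its spread from Nr1d1 (87.7 ± 18.9), the clock repressor REV-ERB alpha, and Rora, a clock activator, came next (44.6 ± 14.0). In scMC38 the mean of Nr4a1 was 54.5 ± 26.2 CPM per kb, below Rora (72.5 ± 10.0) and Nr1d1 (68.0 ± 6.75), both within its spread. Nr4a3 moved from rank 27 to 31 and Nr4a2 from rank 31 to 35. Of the 46 other receptors 33 were tested, with log2 fold changes from -0.90 (Esrrb) to 3.39 (Vdr, the vitamin D receptor, near its detection limit in controls at 0.157 CPM) and a median of -0.10. None of the 33 was called by edgeR, while 12 had an unadjusted p under 0.05 (21.0% of all genes did), DESeq2 called 6 (10.1% of all genes) and total counts 3 (1.89% of all genes). Nr1h3, the oxysterol receptor LXR alpha, stood at 0.40 (edgeR adjusted p = 0.0713), and it passed when scaled by total counts (adjusted p = 0.0243). The glucocorticoid receptor gene Nr3c1 stood at 0.10 (adjusted p = 0.612) and Nr1d1 at -0.37 (adjusted p = 0.222). Nr3c1 was at -0.02 without control 1 and 2.

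**Figure D2:**
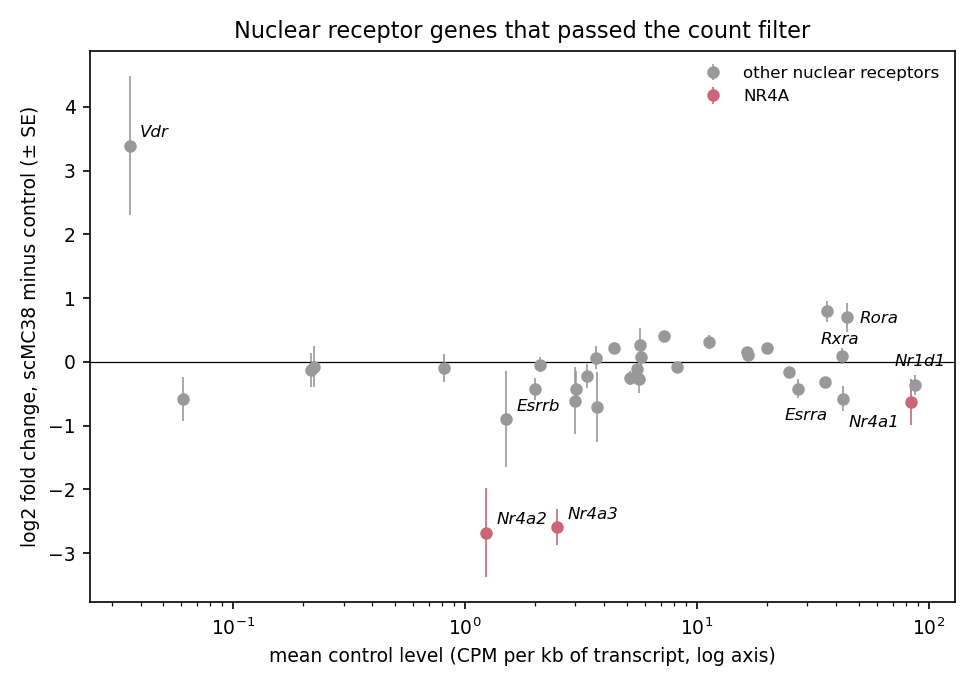
Log2 fold change (scMC38 minus control, bars are SE) against mean control level in CPM per kb on a log axis, for the 3 NR4A genes and the 33 other nuclear receptor genes tested. Nr4a2 and Nr4a3 lie near -2.7 and -2.6 (-2.68 and -2.59), below the other receptors, which reach down to -0.90, and Nr4a1 (-0.63) lies within their range.

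The 3 genes did not follow a single pattern across mice. Over the 8 libraries the log2 CPM of Nr4a2 and Nr4a3 had a Pearson r of 0.81 (Spearman rho 0.74), which was 0.58 for deviations from the group means and 0.71 without control 1 and 2, the libraries farthest from the median of Nr4a2. Nr4a1 gave r = 0.61 with Nr4a3 (rho 0.76, deviations 0.32) and 0.52 with Nr4a2 (rho 0.67, deviations 0.19). Without scMC38 2 and 3, the farthest for Nr4a1, these were 0.47 and 0.43. These values are descriptions over 8 points that share tissue, library preparation and scaling.

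Genes with the most similar profile differed for each member. For Nr4a3, the 5 highest r over the 8 libraries among 10789 genes belonged to Zc3h8 (0.99), Tmx2 (0.98), Pde4a (0.98), Bloc1s6 (0.98) and Zfp931 (0.98). The groups are far apart in Nr4a3, and for deviations from the group means the same genes gave 0.71 to 0.90. With total counts Zc3h8 was at 0.81 and Bloc1s6 at 0.59. For Nr4a2 the 5 were Stard13 (0.97), Dennd5b (0.96), Yes1 (0.95), Arhgap29 (0.95) and Samd5 (0.94), with 0.90 to 0.97 for deviations. Yes1 was at 0.70 with total counts. Each of these 5 genes, like Nr4a2, was highest in control 1 and 2, a pair that the deviations keep. Their r without this pair was not computed. For Nr4a1 the 5 were Sec13 (0.93), Ccdc28a (0.93), Coq10b (0.92), Malt1 (0.91) and Ctnnb1 (0.91), with 0.90 to 0.96 for deviations. Of these, Sec13 and Ctnnb1 dropped to 0.56 and 0.29 when scaled by total counts.

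By deviations from the group means alone, the closest gene was Hdac10 for Nr4a1 (r = 0.98, and 0.22 over all 8 libraries), Rngtt for Nr4a3 (0.99 and 0.78) and Sik1 for Nr4a2. Sik1, a salt-inducible kinase gene that is itself a CREB target, is given in full, a choice made after its values were seen. Sik1 stood at 27.9 and 25.1 CPM in control 1 and 2, at 11.9 and 14.6 in control 3 and 4, and at 18.1, 16.9, 19.5 and 18.4 in scMC38 1 to 4. Its deviations from the group means correlated with those of Nr4a2 at r = 0.99, while over all 8 libraries r was 0.72 (rho 0.40). The same pair of controls was high in both genes, but the scMC38 libraries were above control 3 and 4 in Sik1 and below them in Nr4a2. The log2 fold change of Sik1 was -0.12 (SE 0.25, edgeR adjusted p = 0.802), and it changed sign when the high controls were left out, to 0.45 with both removed, 0.08 with control 1 removed and 0.0047 with control 2 removed.

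**Figure D3:**
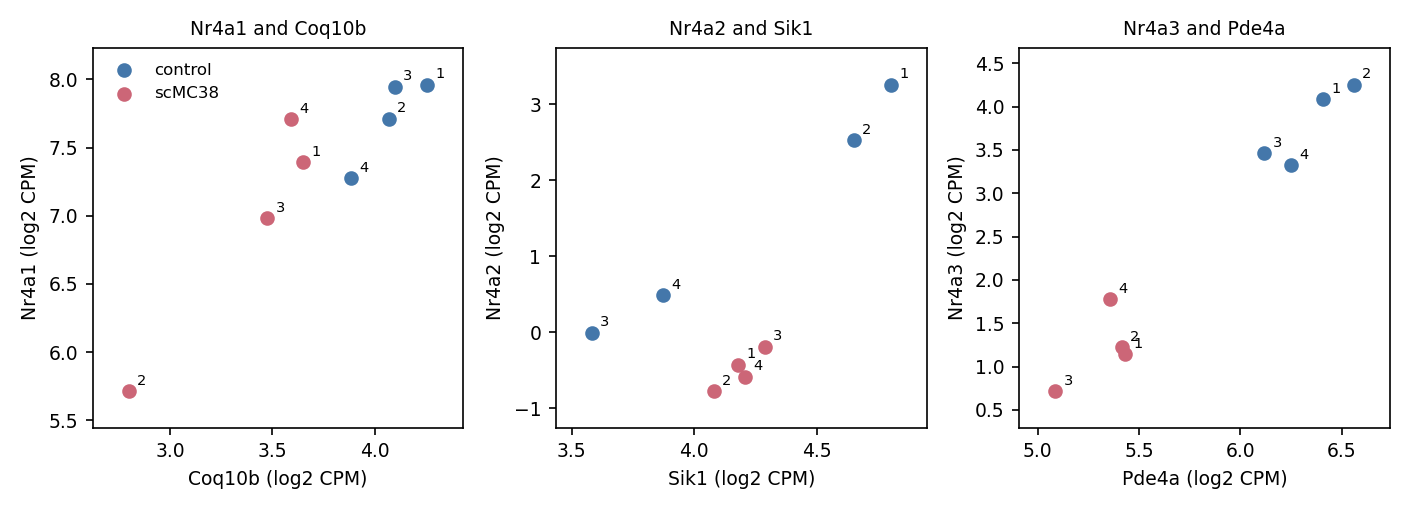
Log2 CPM (prior count 2) of each NR4A gene against a gene with a similar profile, 1 point per library numbered by replicate. Nr4a3 and Pde4a separate the groups together (r = 0.98), Nr4a2 and Sik1 share the high control 1 and 2 but not the group difference (r = 0.72), and Nr4a1 and Coq10b share the low scMC38 2 (r = 0.92).

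Signals that switch NR4A genes on were represented by lists of genes. Of 23 tested genes of cAMP, protein kinase A and CREB signalling, 0 rose and 1 fell past the threshold, with a median log2 fold change of 0.04, against 0.00087 over all 14112 genes. Total counts and DESeq2 each called 3 (1.89% and 10.1% of all genes), adding Adcy2, for an adenylyl cyclase, and Pde4b. An unadjusted p under 0.05 was reached by 5 (21.0% of all genes). The gene that fell was Pde4a, a phosphodiesterase that breaks down cAMP. It stood at 84.9, 94.3, 69.4 and 76.0 CPM in controls 1 to 4. In scMC38 1 to 4 it was 43.1, 42.7, 33.9 and 40.9 CPM. As in Nr4a3, every scMC38 library lay below every control, and control 1 and 2 lay above control 3 and 4. The log2 fold change was -1.02 (SE 0.12, edgeR adjusted p = 0.0162). The call was lost without control 1 (adjusted p = 0.0865) and without control 1 and 2 (0.167), with the value at -0.99 and -0.87. Pde4b, another phosphodiesterase gene of this family and looked at after its values were seen, stood at 0.82 without passing (adjusted p = 0.0737). Crem, a CREB-family gene that cAMP induces, was at -0.33 (adjusted p = 0.216).

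Among 28 genes of calcium, MEF2 and MAP kinase signalling, 1 rose and 0 fell (median 0.0051). An unadjusted p under 0.05 was reached by 2 (21.0% of all genes). Total counts and DESeq2 each called 2 (1.89% and 10.1% of all genes). The added gene was Rcan1, for a calcineurin regulator (-1.05, edgeR adjusted p = 0.0533, looked at after its values were seen). Elk4, a ternary complex factor that joins the serum response factor on immediate early promoters, went from 37.1 ± 2.85 to 52.4 ± 4.48 CPM (SD, n = 4). Its log2 fold change was 0.50 (SE 0.09, edgeR adjusted p = 0.0419). When 1 library at a time was left out, the call was kept only without scMC38 3 (adjusted p = 0.0291) and lost when any other library, from control 1 to scMC38 4, was the one left out (adjusted p = 0.0660 to 0.134). It was also lost with no filter on low counts (0.0533).

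Other immediate early genes were split in direction. Of 36 tested, 1 rose and 1 fell, 17 had a positive and 19 a negative log2 fold change, and the median was -0.02. An unadjusted p under 0.05 was reached by 12 and DESeq2 called 7 (all genes 21.0% and 10.1%), while total counts called 3. The lowest log2 fold change was that of Fosb, at -2.17 (SE 0.44, edgeR adjusted p = 0.0607). Fosb was looked at after its values were seen. Its levels were low, at 0.710 to 1.54 CPM in controls and 0.0985 to 0.388 CPM in scMC38. Dusp1, a phosphatase that shuts off MAP kinases, stood at 72.1, 78.5, 80.3 and 70.4 CPM in controls 1 to 4 and at 36.6, 30.8, 51.5 and 42.5 CPM in scMC38 1 to 4, and fell by 0.90 on the log2 scale (SE 0.15, edgeR adjusted p = 0.0341). Dusp2, a related phosphatase, rose by 1.31 (SE 0.23, adjusted p = 0.0424) from 0.719 ± 0.112 to 1.79 ± 0.357 CPM (SD, n = 4). With 1 library left out, Dusp1 kept its call only without scMC38 3 (adjusted p = 0.0217, otherwise 0.0553 to 0.107) and Dusp2 in none of the 8 fits (0.0573 to 0.122). Dusp1 also lost it when scaled by total counts (adjusted p = 0.0626), and Dusp2 with no filter on low counts (0.0632).

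The best known immediate early genes gave mixed values. Fos, a component of AP-1, was at -0.08 (edgeR adjusted p = 0.910), and Egr1, a zinc finger factor, at -0.07 (adjusted p = 0.922). With total counts these were 0.06 and 0.07. Without control 1 and 2 Fos was at 0.29. Junb, an AP-1 component, stood at 10.8, 10.1, 8.94 and 10.5 CPM in controls 1 to 4 and at 31.6, 13.3, 29.3 and 22.04 CPM in scMC38 1 to 4. Its scMC38 libraries all lay above the controls, and its log2 fold change of 1.25 (SE 0.24) was just outside the threshold (adjusted p = 0.0510). It passed without scMC38 2 (adjusted p = 0.0222), with DESeq2's size factors (0.0487), with total counts (0.0457) and in DESeq2's own test (5.59e-05). Atf3, a stress-induced factor, was at 9.71, 12.1, 9.74 and 1.98 CPM in controls 1 to 4 and at 1.5 to 3.37 CPM in scMC38. Control 4, which also had the lowest Nr4a1 of the controls, lay within the scMC38 range. The log2 fold change of Atf3 was -1.72 (SE 0.50, adjusted p = 0.115), and it passed without control 4 (-2.05, adjusted p = 0.0314) and in DESeq2's test (0.00888).

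No gene for a protein that works with the receptors passed the threshold. Of 23 genes for partners, coregulators and modifying kinases, edgeR called none, with a median of 0.12. An unadjusted p under 0.05 was reached by 7 (21.0% of all genes), and DESeq2 called 2 (10.1% of all genes). Trim28, a corepressor scaffold that has been described as an NR4A coactivator, stood at 0.31 (edgeR adjusted p = 0.115), and Rps6ka2, an RSK-family kinase gene, at -0.40 (adjusted p = 0.132). The retinoid X receptor genes Rxra and Rxrg, whose products pair with Nr4a1 and Nr4a2, were at 0.08 (adjusted p = 0.729) and -0.42 (adjusted p = 0.156). Without control 1 and 2, and without scMC38 2, Rxra was at -0.01.

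None of the muscle genes listed for glucose, fat or growth passed the threshold. In 15 glucose and glycogen genes edgeR called none, and the median was -0.15. An unadjusted p under 0.05 was reached by 4 and DESeq2 called 2, where 21.0% and 10.1% of all genes did so. The glycolytic enzyme genes Pgam2 (-0.70, edgeR adjusted p = 0.0713) and Eno3 (-0.57, adjusted p = 0.124) had the smallest p, with scMC38 below control in all 4 against 4 libraries. The glucose transporter gene Slc2a4 was at -0.10 (adjusted p = 0.629), Pfkm, for muscle phosphofructokinase, at -0.18 (adjusted p = 0.499), and Fbp2, for muscle fructose bisphosphatase, at 0.13 (adjusted p = 0.756). With total counts Slc2a4 was at 0.0019, and without control 1 and 2 Fbp2 was at -0.05.

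In 13 genes of fat oxidation and its regulators edgeR also called none, with a median of 0.0030, 5 had an unadjusted p under 0.05 and DESeq2 called 1 (all genes 21.0% and 10.1%). Lpin1, for the phosphatidate phosphatase lipin 1, was at 0.65 (edgeR adjusted p = 0.0964) and the lipid-sensing receptor gene Ppard at 0.31 (adjusted p = 0.158, and 0.0387 with total counts). Pdk4, for the kinase that shuts off pyruvate dehydrogenase, was at 0.36 (adjusted p = 0.496), Ppargc1a, for the mitochondrial coactivator PGC-1 alpha, at -0.55 (adjusted p = 0.234), and the uncoupling protein gene Ucp3 at -0.39 (adjusted p = 0.590). Ucp3 was at 0.13 without control 4.

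Of 8 growth genes edgeR called none, with a median of -0.03, 2 had an unadjusted p under 0.05 and DESeq2 called 1 (all genes 21.0% and 10.1%). Akt2, for a kinase of the insulin pathway, was at 0.41 (edgeR adjusted p = 0.129) and Fst, for the myostatin inhibitor follistatin, at -0.67 (adjusted p = 0.228). The growth factor gene Igf1 stood at -0.82 (adjusted p = 0.247), the binding protein gene Igfbp5 at -0.06 (adjusted p = 0.926) and Mstn, myostatin, at 0.29 (adjusted p = 0.624). Igfbp5 changed sign in several fits (0.01 with total counts, 0.22 without scMC38 1 and 3), and Mstn was at -0.16 without control 1 and 2.

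NF-kB and inflammation genes, which NR4A receptors are known to dampen in immune and vessel cells, had 1 of 10 tested members higher and 0 lower (median 0.28). This was Sele, the endothelial adhesion molecule E-selectin, at 0 to 0.0554 CPM in controls and 0.455 to 1.17 CPM in scMC38 (log2 fold change 4.76, SE 0.64, edgeR adjusted p = 0.0226). Leaving out control 1, 2 or 3, or scMC38 2, ended its call (adjusted p = 0.0780, 0.0627, 0.0833 and 0.0578). DESeq2 called 5 of the 10 and 5 had an unadjusted p under 0.05 (all genes 10.1% and 21.0%), and Sele did not pass a filter of at least 1 CPM in 4 libraries.

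**Figure D4:**
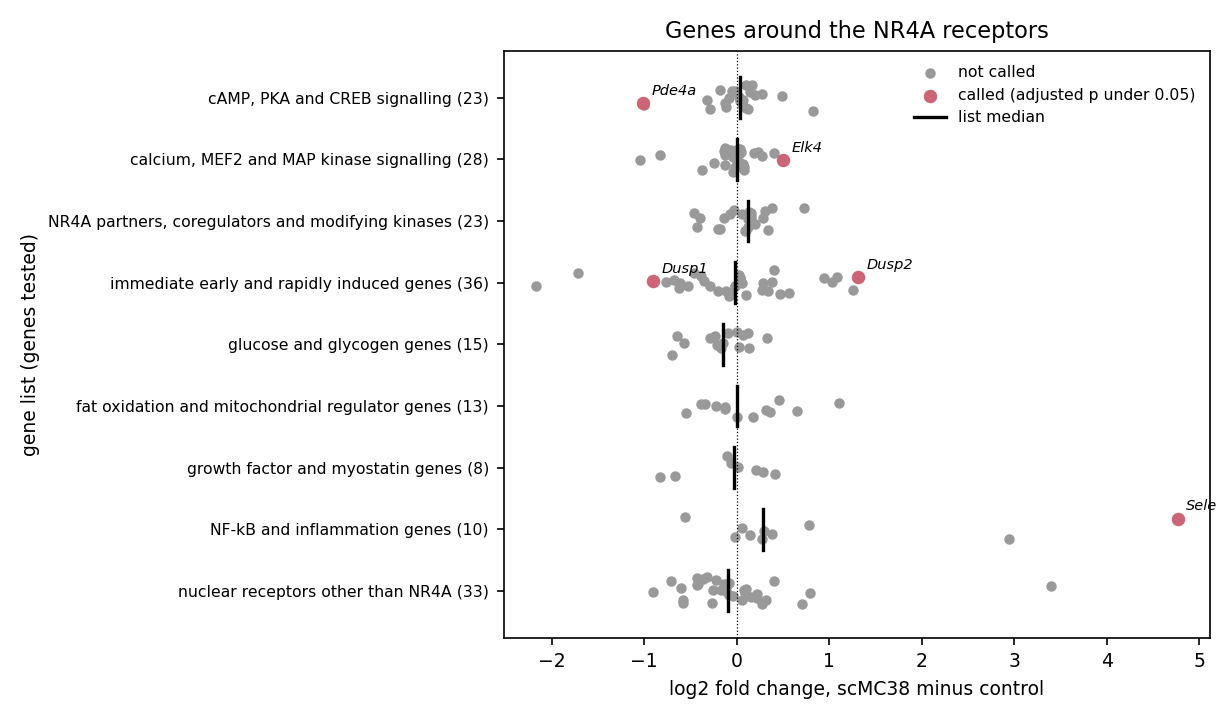
Log2 fold change (scMC38 minus control) of each tested gene in 9 lists, 1 point per gene, with the list median as a black bar and genes past the threshold in red (Pde4a, Elk4, Dusp1, Dusp2 and Sele). Medians lie between -0.15 and 0.28, and most points lie near 0.

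Markers of other cells present in muscle differed in part between the groups. The 4 Schwann cell markers summed to 31.0 to 80.6 CPM in controls and 22.1 to 36.2 in scMC38 (median log2 fold change -0.93), and the 6 markers of fibro-adipogenic progenitors to 921 to 1192 and 620 to 1032 CPM (median -0.42), where 1 gene fell, Col3a1, for a fibrillar collagen (-1.96, edgeR adjusted p = 0.0352, looked at after its values were seen). With 1 library left out, this call was kept only without scMC38 1 (adjusted p = 0.0408, otherwise 0.0558 to 0.102), and it was lost with no filter on low counts (0.0545). In the 4 Schwann cell markers none was called by edgeR, 3 had an unadjusted p under 0.05, and DESeq2 called 2. Over all tested genes, 21.0% had such a p and DESeq2 called 10.1%, shares against which the marker counts here are to be read. Macrophage and monocyte markers (8 of 8 positive, 0 called by edgeR, 4 at an unadjusted p under 0.05, and 3 called by DESeq2) summed to 89.5 to 122 CPM in controls and to 309, 195, 528 and 101 CPM in scMC38 1 to 4. Lyz2 held most of this sum (mean 125 CPM over all libraries), with a log2 fold change of 1.71 (edgeR adjusted p = 0.0971). Over the 8 markers the log2 fold changes ran from 0.36 (Mrc1) to 2.52 (Itgam). scMC38 2 and 4, with lower sums of macrophage, neutrophil and marrow progenitor markers than scMC38 1 and 3, held 0.549 and 0.630 CPM of Nr4a2 and 2.31 and 3.39 CPM of Nr4a3, below every control. T and NK cell markers summed to at most 1.87 CPM in any library. The 5 smooth muscle and pericyte markers were all lower in scMC38 (median -0.50, 0 called by edgeR, 3 at an unadjusted p under 0.05, and 2 called by DESeq2). The 4 B cell markers tested were all higher (median 1.89, 0 called by edgeR, 2 at an unadjusted p under 0.05, and 2 called by DESeq2), and the 6 listed summed to 47.9 to 81.4 CPM in controls and 68.4 to 161 in scMC38. The 7 endothelial markers had a median of -0.19 (0 called by edgeR, 1 at an unadjusted p under 0.05, and 1 called by DESeq2). Of these, 5 were negative and 2 positive. They ran from -1.13 (Kdr, edgeR adjusted p = 0.0865, looked at after its values were seen) to 0.24 (Egfl7). For the 4 satellite cell markers the median was -0.49, while their sum was higher in scMC38 (30.01 to 40.3 against 27.0 to 29.5 CPM). Cdh15 held most of this sum (mean 26.3 CPM over all libraries), with a log2 fold change of 0.41 (edgeR adjusted p = 0.0924). Pax7, Myf5 and Calcr went the other way, at -0.54, -0.44 and -1.04 (edgeR adjusted p = 0.226 to 0.296). The part of these marker differences in the NR4A values was not tested.

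**Figure D5:**
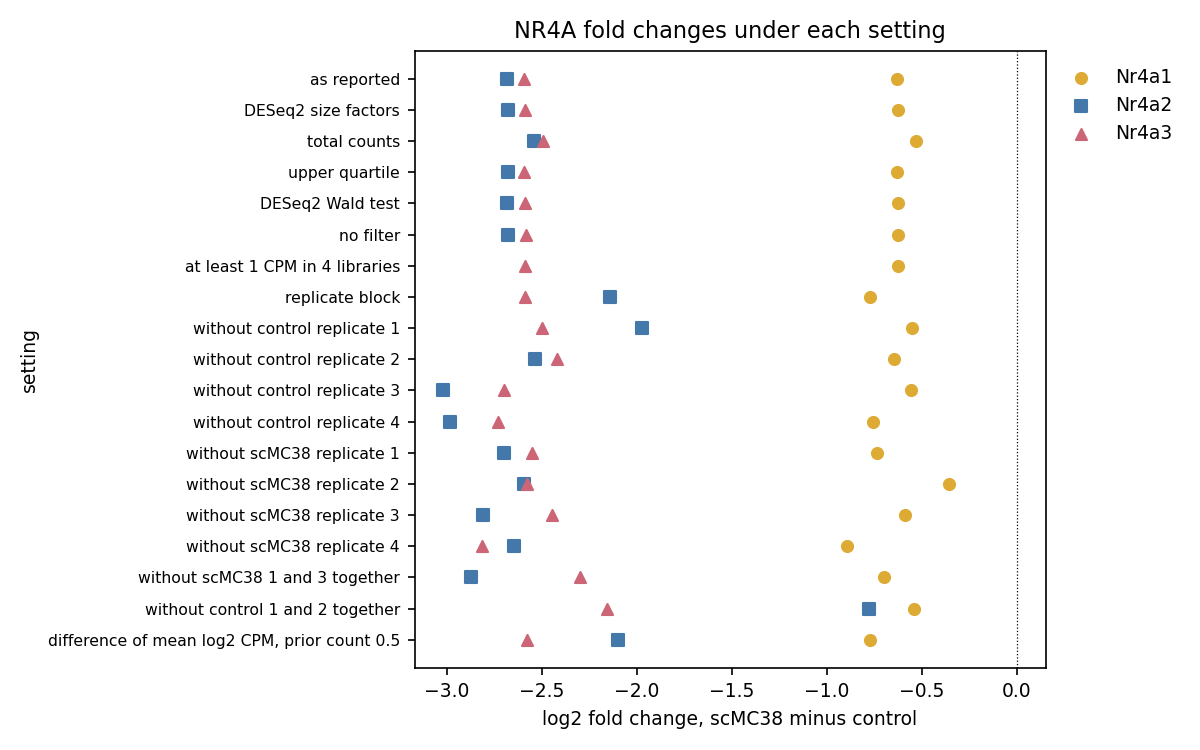
Log2 fold change of each NR4A gene as reported and under each alternative scaling, filter, tool, block or left-out library. Nr4a3 stays between -2.81 and -2.16, Nr4a1 between -0.90 and -0.36, and Nr4a2 between -3.02 and -0.78, the last without control 1 and 2. No Nr4a2 value exists for the filter of at least 1 CPM in 4 libraries, which it did not pass.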

How the data were processed

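Total RNA from quadriceps was sequenced in 8 mice, 1 library each. Library preparation used a Universal Plus kit for mRNA, per the labels' protocols. Salmon 1.10.3, R 4.4.3, fastp 1.0.1, MultiQC 1.30, FastQC 0.12.1 and the build GRCm39 are listed in the submitters' processing notes. Values deposited by the authors are estimated counts of each gene, unscaled, and 49.3% of nonzero values carry a fraction. No source used here gives the annotation release or the strand setting, so Nr1d1 and Thra, which overlap on opposite strands, may share reads.

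Of 35667 rows, 144 without a symbol (0.00270% to 0.00403% of counts) were left out, 26 repeated symbols were summed, and counts were rounded. Groups came from sample titles. No pair of libraries within a group agreed within counting noise (chi-square per degree of freedom 63.2 to 480), so none was treated as 1 library deposited again. edgeR 4.0.16 (R 4.3.3) was run with filterByExpr, TMM and the robust quasi-likelihood F test, without covariates, over 14112 genes, and checked on simulated data. CPM values are TMM-scaled, log2 CPM has a prior count of 2, and SEs are those implied by F. Precision rests on the mice: the common biological coefficient of variation was 27.3%.

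Members and lists were chosen with earlier results of these data known. Named were the 3 members, up to 6 called genes of each of 9 lists (or 2 with the smallest p), 20 genes fixed by name, and for each member the 5 genes with the highest r; 1 gene that the rule names is not reported here. Promoter sequences are RefSeq's for GRCm38.p6, transcript lengths are GENCODE M21's, and counts are on another build, so no gene coordinates are given. Alternatives were other scalings, filters, DESeq2 1.42.0, a replicate block, and left-out libraries.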

Additional observations from a re-analysis of the deposited data

Results flagged for a closer look

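Among the named genes of the lists and the NR4A genes, each group of 4 libraries was checked for a library far from the other 3, a check that marks about 1 in 20 groups by chance. None of the 3 NR4A genes was marked in either group. In scMC38, Fos was highest in scMC38 3 at 8.96 CPM against 4.67 to 5.09 in the others. Eno3 was lowest in scMC38 3 at 1775 CPM, with 2638 CPM the nearest. Crem was highest in scMC38 1 at 7.17 CPM, with 6.45 CPM the nearest. That is 3 marks in 72 groups checked.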

How the results depend on the processing

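Counts of called genes depended strongly on the processing. As reported, edgeR called 104 genes higher and 66 lower. Higher and lower calls were 216 and 51 with total counts (a shift of 0.11 in the median log2 fold change), 829 and 597 with DESeq2's Wald test, 69 and 45 with no filter, 25 and 39 without scMC38 1 and 3 together, and 0 and 0 without control 1 and 2 together (1605 genes at an unadjusted p under 0.05). Leaving out 1 library at a time gave 1 to 59 higher and 1 to 52 lower, the lowest without control 1. The cause was not tested, although fewer mice enter the fits that leave out libraries.

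With the replicate number as a block, 0 genes were called higher and 1 lower (2004 at an unadjusted p under 0.05), and the calls of Pde4a, Elk4, Dusp1, Dusp2, Sele and Col3a1 were lost (edgeR adjusted p = 0.122 to 0.220). They were also lost without control 1 and 2 together (0.167 to 0.315), and those of Elk4, Dusp2 and Col3a1 without scMC38 1 and 3 together (0.0582, 0.0597 and 0.0578). Deviations of same-numbered libraries correlated at -0.28 to -0.0058, and no control library correlated best with the scMC38 library of its number, so the numbers are not shown to pair the mice. In that blocked fit the log2 fold changes were -0.77 for Nr4a1, -2.14 for Nr4a2 and -2.59 for Nr4a3.

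All 3 NR4A genes were lower in scMC38 in every alternative run that gave a value. Nr4a2 had none with the filter of at least 1 CPM in 4 libraries. As reported, the groups do not overlap for Nr4a2 and Nr4a3, so the direction in fits that leave out libraries is no sign of stability. With total counts the groups overlap for Nr4a2. Leaving out 1 library gave -0.90 to -0.36 for Nr4a1, -3.02 to -1.97 for Nr4a2 and -2.81 to -2.42 for Nr4a3. The value that moved by more than the spread between mice was Nr4a2 without control 1 and 2 together (-0.78). With total counts the values were -0.53, -2.54 and -2.49.

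Uncalled genes near 0 changed sign in some fits. With total counts Fos was at 0.0591, Egr1 at 0.0730, Slc2a4 at 0.0019 and Igfbp5 at 0.0136. Without control 1 and 2 together Fos was at 0.29, Fbp2 at -0.0533, Mstn at -0.16, Rxra at -0.0135, Nr3c1 at -0.0217 and Sik1 at 0.45, and without scMC38 1 and 3 together Igfbp5 was at 0.22. Leaving out 1 library gave ranges of -0.350 to 0.216 for Fos, -0.479 to 0.0935 for Egr1, -0.0403 to 0.270 for Fbp2, -0.584 to 0.128 for Ucp3, -0.316 to 0.135 for Igfbp5, -0.0113 to 0.165 for Rxra and -0.307 to 0.0815 for Sik1.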
